A study of Caenorhabditis elegans with 4 samples.

Results

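The cytosolic ribosomal protein genes of Caenorhabditis elegans are described here in larvae depleted of DPY-27 and of one topoisomerase at a time. Members are the genes of the authors' deposited tables whose Ensembl symbol begins with rpl-, rps- or rla- followed by a number, which gives 78 of 17491 genes, 2 on the X chromosome and 76 on autosomes. Another 3 genes with such a symbol, rpl-16, rpl-41.1 and rpl-41.2, were not analysed here. By name 44 members belong to the large subunit, 31 to the small subunit and 3 to the stalk.

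All animals were L2/L3 larvae, grown for 24 h at 22 °C from starved L1 larvae and then kept for 2 h on 1 mM auxin. In strain AM11 a degron and GFP tag was carried by both TOP-2 (topoisomerase II, which lets one DNA double strand pass through another) and DPY-27. In strain AM12 the same tag was carried by TOP-1 (topoisomerase I, which relaxes supercoils through a single-strand cut) and DPY-27. DPY-27 belongs to condensin DC, the dosage compensation complex that lowers expression from both X chromosomes of hermaphrodites. DPY-27 was thus targeted in both strains, and the short names TOP-2 depletion and TOP-1 depletion below always include it. Their comparisons with the control are called the first and the second comparison. The authors compared each strain, with 2 libraries of poly(A)-selected RNA, against strain CA1200 after the same time on auxin, and the 4 samples do not include the control. CA1200 is generally known as a strain that makes the plant F-box protein TIR1 from the eft-3 promoter in somatic cells. Values per library are not part of the tables used here, so each gene is given by its mean over the libraries of a comparison and by its fold change with standard error (SE).

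Each cytosolic ribosome is built from a large and a small subunit of ribosomal RNA and many proteins, nearly all encoded by a single gene each in this animal. Their messages are among the most abundant of a growing larva, and each ribosome holds close to equal amounts of each protein. Ribosomal protein transcripts are commonly used as a group that moves together with growth, nutrition and stage, and a few members have paralogs used in particular tissues.

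Depth per library is unknown here. Summed over genes, the mean normalized counts came to about the same total in both tables, and members took 15.2% of it in the comparison of the TOP-2 depletion and 15.6% in that of the TOP-1 depletion. Of the 100 genes with the highest means 44 and 45 were members, and 73 of the 78 had a mean of at least 10000 in each table. In the authors' deposited table of the TOP-2 depletion rpl-3 (F13B10.2), whose protein reaches towards the peptidyl transferase centre, had the highest mean of all members, 86913 normalized counts.

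Levels were compared between genes per kilobase of exon. In the comparison of the TOP-2 depletion the highest levels were those of rpl-18 with 111631 mean normalized counts per kb, rpl-36 with 108083 and rpl-6 with 78610.2. At the other end stood rpl-42 (C09H10.1), rpl-37 (C54C6.1) and rpl-11.1 (T22F3.4), with 1.27, 90.2 and 2792 mean normalized counts per kb. Next came rpl-24.2 (C03D6.8) with 3255, and then the stalk gene rla-2 with 17052. The 72 autosomal members other than rpl-42, rpl-37, rpl-11.1 and rpl-24.2, called the main autosomal members below and set apart after their levels and fold changes were seen, ran from 17052 to 111631 around a median of 51410.4 mean normalized counts per kb. These levels average depleted and control libraries, so they say nothing of a change.

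Ribosomal protein transcripts stood slightly below the control after TOP-2 depletion. The median log2 fold change of the 78 members was -0.39, and 71 lay below 0, against a median of -0.00 over the 14958 genes tested and -0.13 over autosomal genes whose mean was 10 or more. For the main autosomal members the median was -0.40 (0.76-fold). Only 2 of 77 members with an adjusted p passed the authors' DESeq2 test at an adjusted p under 0.05, beside 21.5% of all genes tested. In the authors' deposited table rpl-11.1, a paralog discussed below, rose by 1.78 ± 0.38 (SE, adjusted p 3.29e-05), and rpl-12 (JC8.3), a protein at the base of the stalk, fell by 0.85 ± 0.33 (SE, adjusted p 0.046). The call of rpl-12 was lost once the autosomal median was subtracted (adjusted p 0.104). At the median SE of the members, 0.31, a log2 fold change of about 0.80 would have been needed for a call, so a shift of the size of the members' median was below what the test could call for a single gene.

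After TOP-1 depletion the members stood nearer to the control. Their median log2 fold change was -0.22, with 65 of 78 below 0, against 0.01 over the 14854 genes tested and -0.14 over autosomal genes with a mean of at least 10. With the autosomal median subtracted, the members' median was -0.08 here and -0.26 after TOP-2 depletion. Of 77 members with an adjusted p only rpl-11.1 passed, beside 29.9% of all genes tested, and in the authors' deposited table it rose by 1.54 ± 0.38 (SE, adjusted p 0.000512). The log2 fold change needed for a call at the members' median SE was about 0.75. Both comparisons use strain CA1200 after the same time on auxin as control, though the labels do not list its libraries. If the libraries are the same, a low or high control value of a gene enters both of its fold changes.

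**Figure D1:**
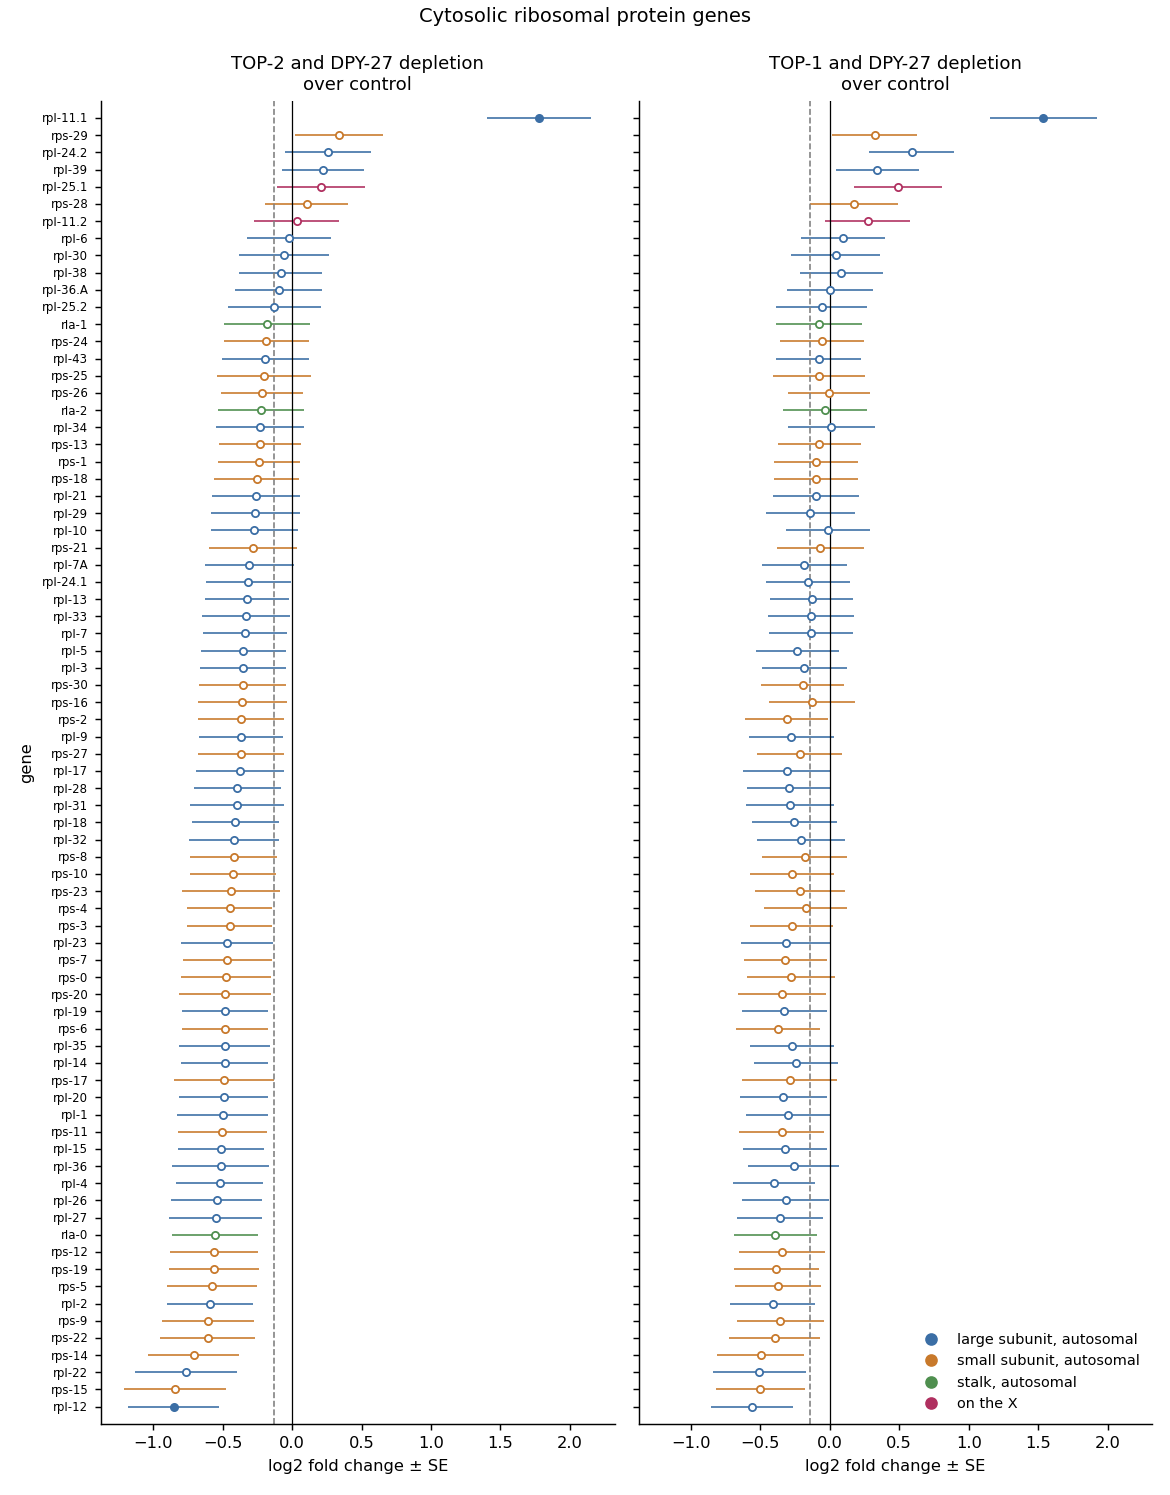
Log2 fold change over control (horizontal axis, bars are ± SE) of the 76 members with a mean of at least 100, after TOP-2 depletion on the left and TOP-1 depletion on the right, both in the order of the left panel. Filled points passed an adjusted p under 0.05, the dashed line is the median of autosomal genes, and apart from rpl-11.1 the members lie between -0.85 and 0.59.

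The plot of members by gene shows this spread. Over the 74 autosomal members with a mean of at least 100 the standard deviation of the log2 fold changes was 0.33 after TOP-2 depletion and 0.28 after TOP-1 depletion, with a median SE of a single member of 0.31. Without rpl-11.1 and rpl-24.2, left out after their values were seen, it was 0.21 and 0.18. Autosomal genes of all kinds whose mean was 10 or more, with none left out, had standard deviations of 1.54 and 1.62. For abundant genes the comparison is closer in level. The 152 other autosomal genes with a mean of at least 10000 in the first comparison had a median of -0.41 and an interquartile range of 0.62, against 0.25 for the 74 members. In the second comparison 148 such genes had a median of -0.25 and an interquartile range of 0.71, against 0.24. The members' median thus lay close to that of other abundant autosomal genes in either comparison. Less RNA per cell and fewer cells rich in ribosomes cannot be told apart in RNA from whole larvae.

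**Figure D2:**
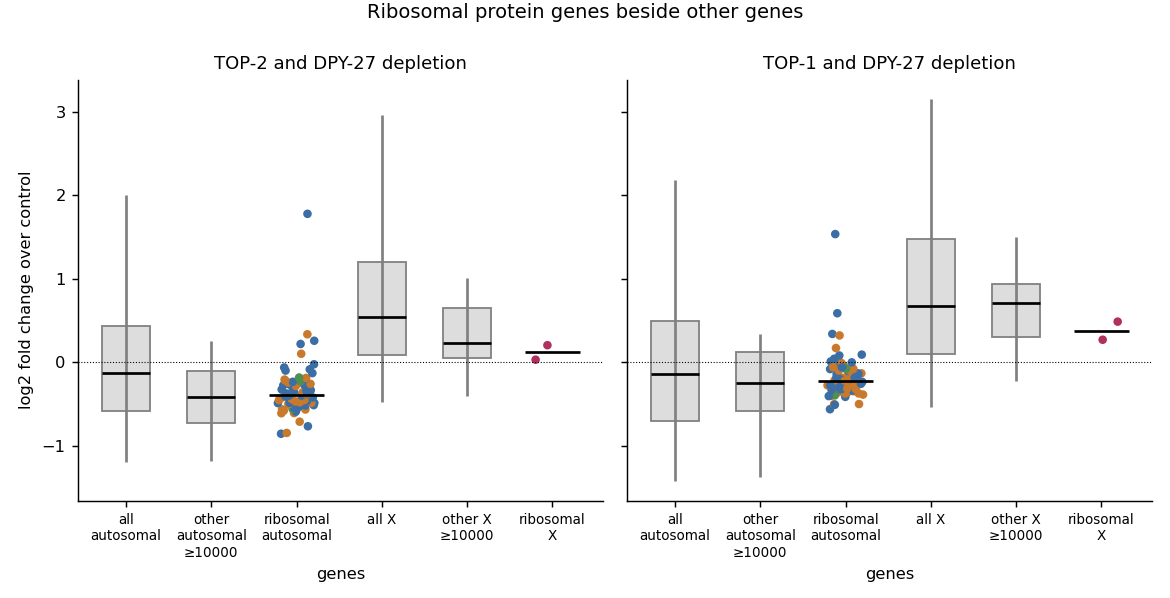
Log2 fold change over control (vertical axis) of members with a mean of at least 100 (points, black line at the median) beside other genes (box from the lower to the upper quartile, line from the 10th to the 90th percentile, black line at the median), for all autosomal or X genes with a mean of at least 10 and for those with a mean of at least 10000. Autosomal members cluster near the median of other abundant autosomal genes, -0.41 and -0.25, and the 2 X members lie above 0 in both comparisons.

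Within the large subunit, 1 of 43 members with an adjusted p rose and 1 fell after TOP-2 depletion, beside 14.1% and 7.47% of all genes tested. The median of all 44 members was -0.36. The 5S rRNA partner rpl-5 was at -0.35 ± 0.31 (SE) in the authors' deposited table, and rpl-3 and rpl-4, near the peptide exit path, were at -0.35 ± 0.31 and -0.52 ± 0.31. The values of rpl-5 and rpl-3 lay near the median of the subunit, that of rpl-4 below its lower quartile of -0.495. None passed the test. The lowest after rpl-12 among abundant genes was rpl-22 (C27A2.2), at -0.76 ± 0.37 in the authors' deposited table (adjusted p 0.128). After TOP-1 depletion the subunit had a median of -0.19, and rpl-12 and rpl-22 were again its lowest abundant members, at -0.56 ± 0.30 (adjusted p 0.146) and -0.51 ± 0.33 (adjusted p 0.262) in the authors' deposited table.

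No small subunit member passed the test in either of the authors' deposited tables, of 31 measured, beside 21.5% and 29.9% of all genes tested. An unadjusted p under 0.05 by DESeq2 was found for 2 and 0, beside 4724 of 14958 and 5759 of 14854 genes tested. The median of the 31 members was -0.44 after TOP-2 depletion and -0.27 after TOP-1 depletion. Lowest of them was rps-15 (F36A2.6), which sits in the head of the subunit, in the authors' deposited tables at -0.84 ± 0.36 (SE, adjusted p 0.084) and -0.50 ± 0.32 (adjusted p 0.251). Its neighbour in that order, rps-14 (F37C12.9) of the platform, was at -0.71 ± 0.33 (adjusted p 0.113) and -0.50 ± 0.31 (adjusted p 0.236) in the authors' deposited tables. Of these, rps-14, rps-15 and rpl-22 had an unadjusted p under 0.05 after TOP-2 depletion, as did the called rpl-11.1 and rpl-12, which makes 5 of 78 members beside 4724 of 14958 genes tested. The substrate of S6 kinase, rps-6, was at -0.48 ± 0.31 and -0.37 ± 0.30 in the authors' deposited tables, and rps-3, at the mRNA entry, at -0.45 ± 0.31 and -0.27 ± 0.30. At the upper end, rps-29 (B0412.4), a small zinc-binding protein, was at 0.34 ± 0.31 and 0.32 ± 0.31 in the authors' deposited tables (adjusted p 0.503 and 0.467).

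The stalk, which recruits the translational GTPases, is made of P0, P1 and P2. Its genes rla-0, rla-1 and rla-2 were at -0.55 ± 0.31, -0.18 ± 0.31 and -0.22 ± 0.31 (SE) after TOP-2 depletion in the authors' deposited table. After TOP-1 depletion the authors' deposited table gave -0.39 ± 0.30, -0.08 ± 0.31 and -0.03 ± 0.30, and none of the 3 passed either test. RefSeq names a second P2 gene, C37A2.7 (rplp-2.1), which the symbol rule leaves out, and in the authors' deposited tables it was at -0.67 ± 0.33 and -0.47 ± 0.31.

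Ribosomal protein genes were rare on the X. Chromosome I held 23 members, IV 18, III 17, II 10, V 8 and the X 2, so that 2.56% of members were X-linked against 14.9% of all genes in the tables and 14.2% of genes with a mean of at least 10000 in the first comparison. Both X-linked members have an autosomal paralog. They are rpl-11.2 (F07D10.1), whose product binds 5S rRNA with RPL-5, and rpl-25.1 (F55D10.2), named rpl-23A.1 by RefSeq, whose product lies at the exit of the peptide tunnel.

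The X-linked members stood above the autosomal median of members in both comparisons, and X genes in general stood above autosomal genes. In the authors' deposited table of the TOP-2 depletion rpl-11.2 was at 0.03 ± 0.31 (SE, adjusted p 0.957) and rpl-25.1 at 0.21 ± 0.32 (adjusted p 0.716). After TOP-1 depletion the authors' deposited table had them at 0.27 ± 0.30 (adjusted p 0.548) and 0.49 ± 0.32 (adjusted p 0.254). None of these passed the test against the control. The median of the 2 X members exceeded that of the 76 autosomal members by 0.52 (1.43-fold) after TOP-2 depletion and by 0.61 (1.52-fold) after TOP-1 depletion. The X median exceeded the autosomal median by 0.67 and 0.82 over all genes whose mean was 10 or more. With only 2 X members no test was made of this difference, and in each comparison 5 autosomal members lay above the lower of the 2, rpl-11.1, rps-29, rpl-24.2 and rpl-39 in both, with rps-28 in the first and the barely detected rpl-42 in the second. Other X genes with a mean of at least 10000 had medians of 0.24 (35 genes) and 0.71 (44 genes).

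The paralog sets differ in how their expression is divided. The autosomal rpl-11.1 on chromosome V and the X-linked rpl-11.2 encode the same ribosomal protein, and rpl-11.1 is known as a gene needed for proliferation of the germ line, where the X chromosome is largely silent. Per kilobase of exon rpl-11.2 was 21.3 times as abundant as rpl-11.1 in the first comparison and 26.4 times in the second, so that rpl-11.1 made up 4.49% and 3.65% of the pair. Against the control rpl-11.1 rose 3.43-fold after TOP-2 depletion (95% interval of the log2 fold change 1.04 to 2.52) and 2.90-fold after TOP-1 depletion (0.78 to 2.29) in the authors' deposited tables. Its call held under every alternative tried. If reads that match both copies were shared or dropped in counting, a step the sources used here do not describe, the values of the pair would be uncertain.

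Most germline markers rose, as did rpl-11.1. Of 18 listed markers, all measured, 14 rose after TOP-2 depletion (list median 4.06) and 13 after TOP-1 depletion (list median 3.28), beside 14.1% and 17.1% higher among all genes tested. None of the 18 passed as lower, beside 7.47% and 12.8% of all genes tested, though 2 and 3 of the 18 lay below 0. The germ granule gene pgl-1 was at 4.38 ± 0.43 and 3.66 ± 0.43 (SE) in the authors' deposited tables, and the helicase gene glh-1 at 3.86 ± 0.42 and 3.22 ± 0.38. The markers that did not pass after TOP-2 depletion, cgh-1, mex-3, car-1 and nos-3, had means of 869 to 2796 normalized counts. In the authors' deposited tables cgh-1 was at 0.40 ± 0.31 and -0.02 ± 0.30 (SE), and mex-3 at -0.65 ± 0.40 and -0.89 ± 0.37. There car-1 was at -0.19 ± 0.31 and -0.22 ± 0.31, and nos-3 at 0.54 ± 0.36 and 0.07 ± 0.35. The part of germline RNA in the values of rpl-11.1 was not tested.

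The 2 genes of the rpl-25 set are both abundant. In the first comparison X-linked rpl-25.1 had 63089 mean normalized counts per kb and rpl-25.2 (F52B5.6) on chromosome I 27647, so that the X copy made up 69.5% of the pair, and 71.3% in the second comparison. Neither passed the test. On the autosome rpl-25.2 was in the authors' deposited tables at -0.13 ± 0.34 and -0.06 ± 0.33 (SE). In each comparison rpl-25.2 stood above the median of the main autosomal members.

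The other 2 sets pair an abundant gene with a minor one. RefSeq names rpl-24.2 rsl-24D1, after a factor that in yeast works in assembly of the large subunit. Per kilobase of exon rpl-24.1 (D1007.12) was 22.3 times as abundant as rpl-24.2 in the first comparison and 20.6 times in the second. The abundant rpl-24.1 was in the authors' deposited tables at -0.32 ± 0.31 and -0.16 ± 0.30 (SE), and rpl-24.2 at 0.26 ± 0.31 (adjusted p 0.622) and 0.59 ± 0.31 (adjusted p 0.139). The intronless member rpl-37 (C54C6.1, rpl-37.2 in RefSeq) had a mean of only 24.9 normalized counts in the authors' deposited table. Its paralog W01D2.1, rpl-37.1 in RefSeq and outside the symbol rule, had 21258 and was at -0.38 ± 0.33 and -0.24 ± 0.32 (SE) in the authors' deposited tables. At -1.23 ± 0.73 (adjusted p 0.246) and -0.95 ± 0.73 (adjusted p 0.351) rpl-37 itself was too shallow for its place among the lowest members of the authors' deposited tables to be told from 0. Shallower still, rpl-42 had means of 0.917 and 2.00 normalized counts and no adjusted p in the authors' deposited tables, with log2 fold changes of -1.31 ± 3.22 and 1.07 ± 2.28 (SE) that carry no direction.

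**Figure D3:**
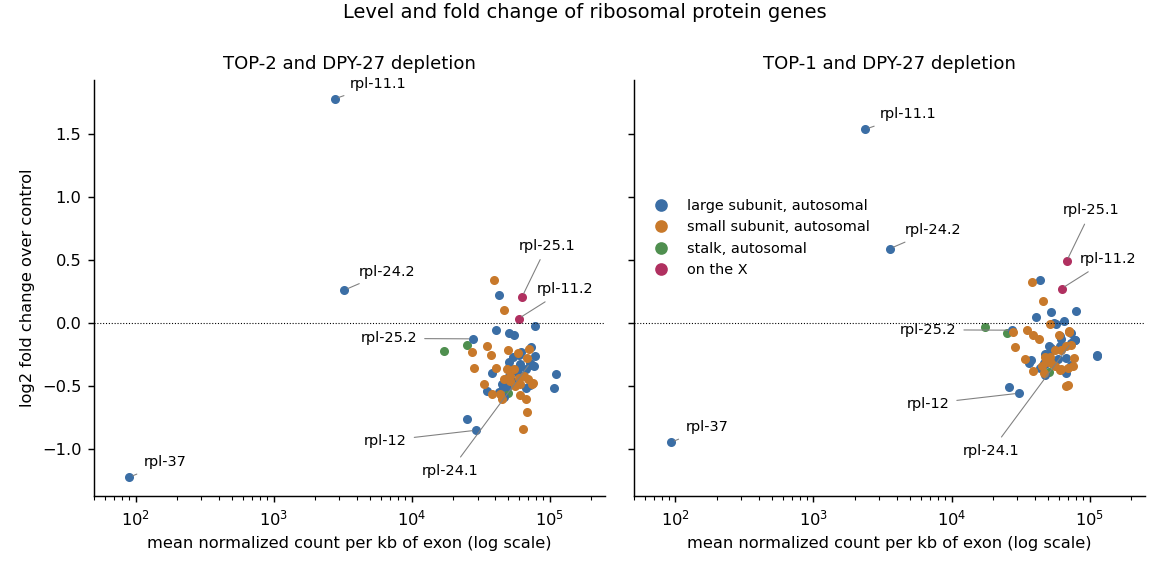
Log2 fold change over control (vertical axis) against mean normalized count per kb of exon (horizontal axis, log scale) for the 77 members with a mean of at least 10, with the paralog sets and rpl-12 named. The minor members rpl-37, rpl-11.1 and rpl-24.2 stand at 90.2, 2792 and 3255 in the first comparison, well to the left of all others, and rpl-11.1 stands alone at the top. Blue marks the large subunit, orange the small subunit, green the stalk and red the X.

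The depletions were then compared with each other through the difference of their fold changes, in which the control cancels if its libraries are shared. Nearly every member had a lower fold change after TOP-2 depletion than after TOP-1 depletion, by amounts smaller than the SE of a single difference. The median difference of log2 fold changes was -0.17, and 75 of 77 members lay below 0, rps-29 at 0.01 and rpl-11.1 at 0.24 being the exceptions. No member passed the Wald test of the difference with Benjamini-Hochberg adjustment over all 14646 genes, beside 0.102% of all genes tested (0.0615% higher and 0.041% lower after TOP-2 depletion), and 0 of 77 had an unadjusted p under 0.05, beside 620 of 14646 genes. With the variance halved, as for a shared control, the smallest adjusted p of a member was 0.817. The median difference of autosomal genes with a mean of at least 10 in both tables was 0.07, and 76 of the 77 members lay below it. The 139 other autosomal genes with a mean of at least 10000 in both tables had a median difference of -0.17, with an interquartile range of 0.49 against 0.09 for the 74 autosomal members with a mean of at least 100.

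The lowest differences were those of rps-15, at -0.34 ± 0.49 (SE), rpl-24.2, at -0.33 ± 0.44, and rpl-12, at -0.29 ± 0.44. For rpl-12 the 95% interval of the difference ran from -1.16 to 0.57. The highest after rpl-11.1 (0.24 ± 0.54) and rps-29 (0.01 ± 0.44) was rps-2, at -0.06 ± 0.43. X-linked rpl-11.2 and rpl-25.1 differed by -0.24 ± 0.43 and -0.28 ± 0.45, within the range of the autosomal members. A difference of about 1.79 on the log2 scale would have been needed for a call at the members' median SE, so differences of the size seen were not detectable for single genes.

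**Figure D4:**
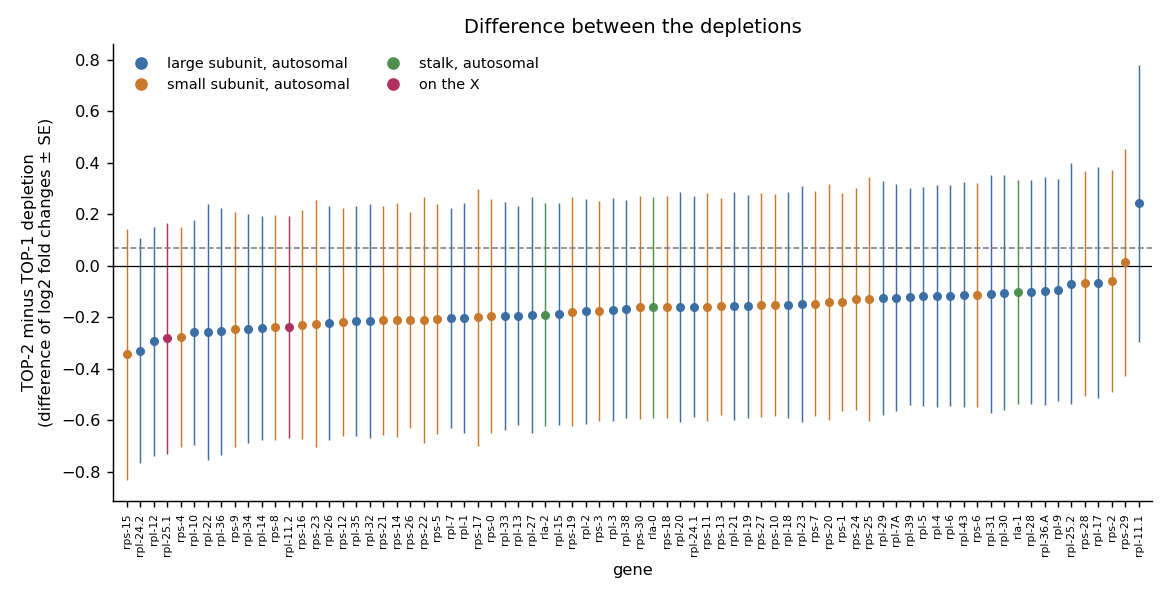
Difference of the log2 fold changes, TOP-2 depletion minus TOP-1 depletion (vertical axis, bars are ± SE), for the 76 members with a mean of at least 100 in rising order. The dashed line is the median of autosomal genes, 0.07, and all members but rpl-11.1 lie below it, each by less than 1 SE.

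Members with short transcripts had a higher median than the rest, by a split at 400 bases of exon that was not planned beforehand. Among the main autosomal members, the 12 with at most 400 bases of exon had a median log2 fold change of -0.20 after TOP-2 depletion, against -0.43 for the 60 longer ones. After TOP-1 depletion the medians were -0.03 and -0.27. Of these 72, the 3 above 0 in the authors' deposited table of the TOP-2 depletion were all short, rps-29 with 265 bases, rpl-39 (C26F1.9, which lines the peptide tunnel) with 236 bases at 0.22 ± 0.30 (SE), and rps-28 (Y41D4B.5) with 252 bases at 0.10 ± 0.30. None of them passed the test. Not every short member was high, as rpl-36 with 347 bases was at -0.51 ± 0.35 in the authors' deposited table. After TOP-1 depletion 8 of the 72 lay above 0, and 2 of them were longer than 400 bases, rpl-6 with 696 bases at 0.09 ± 0.30 and rpl-30 with 530 bases at 0.04 ± 0.32 in the authors' deposited table. The longest member, rpl-3 with 1456 bases, lay near the median. Across the 72 genes, which come from the same libraries, fold change and exon length had a Spearman correlation of -0.39 in the first comparison and -0.46 in the second, as a description. Other autosomal protein-coding genes whose mean was 1000 or more went the other way in the first comparison. Their medians were -0.38 for 36 short genes and -0.31 for 2073 longer ones. In the second comparison these medians were 0.12 for 37 genes and -0.31 for 1946.

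**Figure D5:**
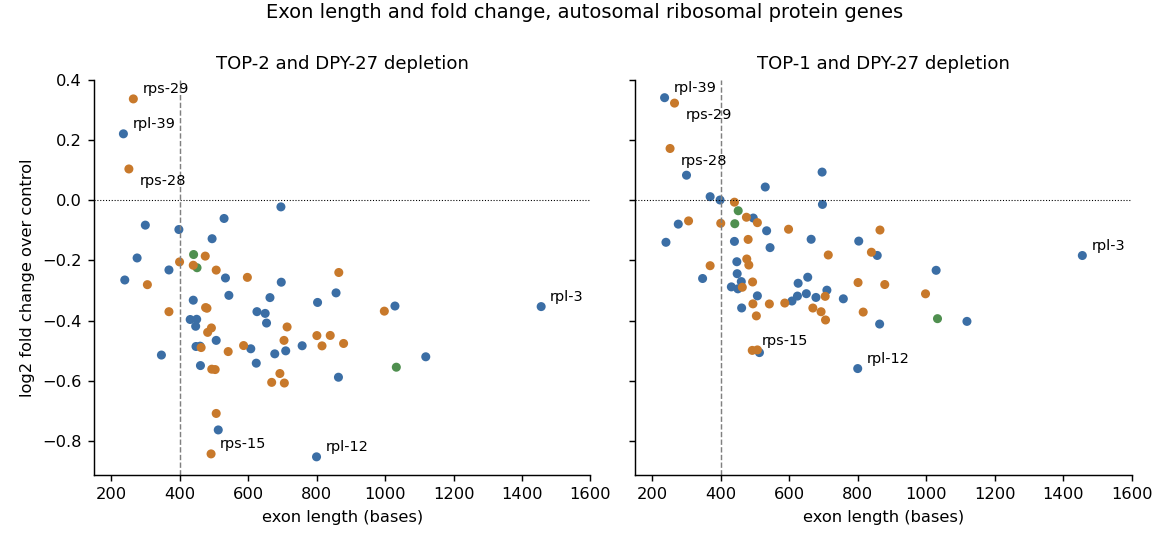
Log2 fold change over control (vertical axis) against exon length in bases (horizontal axis) for the 72 main autosomal members, with the dashed line at 400 bases and 6 genes named. Members above 0 in the left panel are rps-29, rpl-39 and rps-28, and the lowest, rpl-12 and rps-15, have 800 and 492 bases. Blue marks the large subunit, orange the small subunit and green the stalk.

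The precision of single members also varied with their fold change. In the comparison of the TOP-2 depletion the SE of the main autosomal members had a Spearman correlation of -0.53 with their fold change, and of -0.09 in the other comparison. Among the widest in the authors' deposited table of the TOP-2 depletion were rpl-22 and rps-15, with an SE of 0.37 and 0.36, which also had the lowest fold changes after rpl-12. The called rpl-12 had an SE of 0.33 there, and the part of precision in this order was not tested.

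Factors that sit on the ribosome, or carry a ribosomal protein fused to ubiquitin or a ubiquitin-like domain, stood near the members. The fusion genes are ubq-2, with a ribosomal protein behind ubiquitin, and ubl-1 (rps-27A in RefSeq), with one behind a ubiquitin-like domain. They were at -0.25 ± 0.30 and -0.31 ± 0.30 (SE) after TOP-2 depletion in the authors' deposited table. Together with the scaffold rack-1 and the nascent chain factors icd-1 and icd-2 the list had a median of -0.31 in the first comparison and -0.23 in the second, with 0 of 5 passing the authors' DESeq2 test, or at an unadjusted p under 0.05, in either. Of all genes tested 21.5% and 29.9% passed, and 4724 of 14958 and 5759 of 14854 had an unadjusted p under 0.05. Elongation factors had medians of -0.27 and -0.09 over 8 genes. The only one to pass was iff-1, the eIF5A gene of the germ line, which rose by 2.05 ± 0.51 and 1.85 ± 0.48 (SE, adjusted p 0.000521 and 0.000926) in the authors' deposited tables, while its somatic paralog iff-2 was at -0.63 ± 0.32 and -0.29 ± 0.31.

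Initiation factors had medians of 0.05 and 0.03 over 26 genes. After TOP-2 depletion 0 of 26 passed the authors' DESeq2 test or had an unadjusted p under 0.05, beside 21.5% of all genes tested that passed. After TOP-1 depletion only ife-2, an X-linked cap-binding protein gene, rose, by 0.81 ± 0.32 (SE, adjusted p 0.04) in the authors' deposited table, beside 29.9% that passed. The list of RNA polymerase I and ribosome assembly genes had higher medians. It was matched by symbol, and in this animal gar-1 names an acetylcholine receptor and tsr-1 a nuclear import receptor. Both are counted in its medians and totals but are not assembly genes. After TOP-2 depletion 9 of 33 rose and none fell, beside 14.1% higher and 7.47% lower among all genes tested, with a list median of 0.65. X-linked gar-1 was among the 9, at 1.99 ± 0.45 (SE) in the authors' deposited table. The 9 also include nucl-1 (nucleolin), at 1.48 ± 0.30, and the small nucleolar RNP genes fib-1, at 1.01 ± 0.33, nol-56, at 1.06 ± 0.33, and nol-58, at 1.09 ± 0.33, in the authors' deposited table. After TOP-1 depletion the list median was 0.43. In the authors' deposited table nucl-1 rose by 0.80 ± 0.30 and tsr-1 fell by 1.18 ± 0.35, 1 of 33 in each direction, beside 17.1% and 12.8%. The fall of tsr-1 is thus not that of an assembly gene. No gene of this list passed the Wald test of the difference between the depletions, beside 0.102% of all genes tested. An unadjusted p under 0.05 by that test was found for 2 of 33, beside 620 of 14646 genes tested. They were pro-3, with a difference of 1.40 ± 0.49 (SE, adjusted p 0.535), and tsr-1, with 1.22 ± 0.49 (adjusted p 0.84). Among 16 regulators of ribosomal protein synthesis, such as the TOR kinase gene let-363 and the S6 kinase gene rsks-1, X-linked aak-2 rose in both comparisons, by 0.87 ± 0.34 and 0.86 ± 0.33 in the authors' deposited tables, and ife-2, also in this list, in the second. The list medians were -0.02 and -0.15. The TOR gene let-363 was in the authors' deposited tables at 0.26 ± 0.33 and -0.04 ± 0.32, and larp-1, a binder of ribosomal protein messages in mammals, at 0.70 ± 0.31 (adjusted p 0.091) and 0.37 ± 0.31.

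Markers of other tissues of the larva are given beside 14.1% higher and 7.47% lower among all genes tested in the first comparison, and 17.1% and 12.8% in the second. Of 9 pharynx markers 8 rose in each comparison, with list medians of 6.03 and 5.47. Intestine markers had 1 and 2 of 8 higher (medians 0.17 and 0.47), and body wall muscle markers 1 and 2 of 7 (medians 0.23 and 0.34), with none lower. Hypodermis markers had 0 higher and 2 lower of 8 in the first comparison and 1 higher and 4 lower in the second, with medians of -0.50 and -0.76. Neuron markers had 2 of 8 lower in each, with medians of -0.60 and -0.37. The part of tissue make-up in the members' shift was not tested.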

How the data were processed

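RNA sequencing of 4 samples in 2 groups was used through 2 tables that the authors deposited, 1 per comparison with the control. Mean normalized counts, a signal averaged over the libraries of a comparison, were deposited by the authors, as were log2 fold changes of depletion over control with their SE. The score (Wald statistic) and every p-value and adjusted p-value are the authors' own, per the file headers. DESeq2 result columns fill both files, and DESeq2 1.30.0, HISAT2 2.2.1, HTSeq 0.13.5, Cufflinks 2.2.1 and CASAVA 1.8 are listed, without roles, per the submitters' processing notes. Coordinates are left out because the sources used here give no genome build. Replicates are called biological in the design text with no word on separate cultures, and p-values measure only the spread between these libraries.

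From these values, with Python 3.11.15, pandas 2.3.3 and scipy 1.17.1, gene names were matched to Ensembl release 115 (98.1% matched), which gave symbols and exon lengths (union of exons). The threshold for a call was an adjusted p under 0.05, and missing adjusted p-values (1969 and 2333 genes, 1 member) stayed missing. The difference between depletions was tested by a Wald z with both SEs taken as independent, which overstates its SE if the control libraries are shared, and Benjamini-Hochberg adjustment, a step tested on simulated data. Medians over members carry no test. Members and lists were chosen with earlier results of these data known. Named genes are the called members, the 3 highest and 3 lowest by fold change, difference or level, X-linked members, paralogs, stalk genes and called genes of the lists. Any other gene was named after its values were seen. Of the listed factors and markers, those without a match were not analysed here. Alternatives were another threshold, adjustment set, centring, floor on the mean (10 or 100), SE of the difference, and 2 other member lists. One was without the rpl-11, rpl-24 and rpl-25 paralog sets. The other added the 4 genes that RefSeq alone names as ribosomal proteins, and was chosen after seeing the data.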

Additional observations from a re-analysis of the deposited data

How the results depend on the processing

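After TOP-2 depletion 2 members were called, and 1 with a threshold of 0.01, 1 with Benjamini-Hochberg adjustment over all genes with a p, and 1 with fold changes centred on the autosomal median. In each of these rpl-12 was lost (adjusted p 0.046, 0.052 and 0.104), while with genes of a mean of at least 10 it kept its call (0.0424). The other 25 recomputed counts and medians, with their alternatives, stayed within 1.5 times the count or within the median SE of a member, and rpl-11.1 passed under each alternative in both comparisons. For medians this margin was 0.31 in each comparison and 0.44 in the difference. It is wide beside member medians of -0.39, -0.22 and -0.17, so staying within it is a loose check. Median log2 fold changes of members ranged from -0.41 to -0.26 after TOP-2 depletion and from -0.25 to -0.08 after TOP-1 depletion. The alternative without paralogs left out the rpl-11, rpl-24 and rpl-25 sets. No X member is left then, so the X difference has no value there. With the variance of the difference halved, 338 genes of all tested were called in place of 15, with 0 members in either. At a threshold of 0.01 there were 3, and 10 after centring. No paired analysis was possible because the tables hold no value per sample, and for the same reason leaving out a replicate was not run. Depth per library is unknown, and the deposited SE, 0.31 at the median of the members, sets what could be called.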

Other observations

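Outside the symbol rule, the gene Y37E3.8, which RefSeq names rpl-27A, was lower than any abundant member, at -0.96 ± 0.41 (SE, adjusted p 0.0777) after TOP-2 depletion and -0.77 ± 0.38 (adjusted p 0.109) after TOP-1 depletion in the authors' deposited tables, and passed neither test.

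The translation elongation factor eEF1A, which brings aminoacyl-tRNA to the ribosome, is encoded by an autosomal gene, eef-1A.1, and an X-linked one, eef-1A.2. In the authors' deposited tables eef-1A.1 was at -0.43 ± 0.30 and -0.27 ± 0.29 (SE), in the range of autosomal ribosomal protein genes, and eef-1A.2 at 0.51 ± 0.30 and 0.44 ± 0.29. None of these passed the test, and the difference between the copies was not tested.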
